A study of Rattus norvegicus with 5 samples.

Results

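The genes described here are immediate early genes, which cells switch on first when a signal arrives, and phosphatases of the mitogen-activated protein (MAP) kinases, followed in rat lung after exposure to urban dust. Members were all probe sets that the platform annotation assigns to Egr1, Nr4a1, Myc, Cebpb, Cebpd, Ier3, Btg2, Dusp1 or Dusp6. This gave 20 of 8740 non-control probe sets, standing for 8 of the 9 listed genes. No probe set carried the name Btg2 in the annotation used here, so Btg2 was not analysed here. A gene's probe sets read different stretches of its sequence record or records, and a pair ending in _at and _g_at with one accession shares its target, so probe sets of a gene are not replicates.

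Total lung RNA was read on 5 one-colour oligonucleotide arrays, 1 per group, each with a pool. The exposed rats received EHC-93, a preparation of urban particulate matter, into the trachea. Their lungs were pooled by time: 2, 4 and 6 h for the early array, 15, 18 and 21 h for the intermediate array, and 24, 32 and 40 h for the late array. The sham pool joined RNA from 2, 15 and 24 h after saline was instilled in the same way, and the untreated pool joined RNA from 3 rats that had no instillation. The sources used here give no strain, sex, age or dust dose, nor how many rats stand behind the instilled pools. A pool gives 1 value for its 3 times, and the sham pool held no RNA from 4 or 6 h.

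Immediate early genes are transcribed within minutes of a growth factor, a cytokine or a stress, without new protein having to be made first. The signal usually runs through the MAP kinases ERK, JNK and p38, which phosphorylate factors already bound at these promoters, such as the serum response factor complex on CArG boxes and CREB on cyclic AMP response elements (CRE). Many of the messages are short-lived, and some of the products, among them Dusp1 and Dusp6, switch the kinases off again. In lung, the C/EBP factors of this group are known as regulators of acute phase and innate defence genes in epithelium and macrophages.

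Deposited intensities were scaled to a common median, and values under the 40th percentile, 172.53, were set to that floor. All 20 member probe sets exceeded the floor somewhere, 19 of them on all 5 arrays. A call, higher or lower, means a difference of 2-fold or more in one direction from the sham array and from the untreated array alike. With 1 array per group this has no replicate error and no test. The only yardstick within the controls is the gap between the sham and untreated arrays, which had a median size of 0.32 (log2) over the members and 0.22 over the 6188 probe sets tested, those that exceeded the floor on any array. The number of arrays limits the precision.

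The arrays were not alike in RNA or copy integrity, as read from the ratio of the 5′ to the 3′ probe set of beta-actin and of GAPDH. It was highest on the early array, at 43.1% and 67.2%, and lowest on the intermediate array, at 9.07% and 23.6%. The other 3 arrays lay between 14.7% and 24.4% for beta-actin and between 25.4% and 39.1% for GAPDH. Lung markers were present on each array: Ager, a marker of alveolar type 1 cells, read from 25949 to 30011, and all 4 measured type 2 cell markers passed the floor. Of the 4 type 1 markers measured, Cav1 alone was called, higher early and lower at the intermediate times: it read 2655 early, 317 intermediate and 535 late, against 808 in sham and 783 in untreated lung. The part of this in the members' differences was not tested. In bulk tissue fewer cells of a type and less RNA per cell cannot be told apart.

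On the early array, at 2 to 6 h, 11 of the 20 member probe sets were higher than both unexposed arrays, against 3.17% of all probe sets tested, and 0 were lower, against 0.452%. The 11 belonged to 7 genes: Egr1, Myc, Cebpb, Cebpd, Ier3, Dusp1 and Dusp6. Nr4a1 had none. The calls of 2 genes depended on the scaling or the floor: with values as deposited, 75th percentile scaling or quantile normalization 9 probe sets of 6 genes passed, without Cebpb, and with the floor at the 60th percentile 10 probe sets of 6 genes passed, without Dusp6. The median member lay 1.18 above the mean of the unexposed arrays on the log2 scale, where the median of all probe sets was 0. The early array was the highest of all 5 for 17 of the 20, against 22.8% of all probe sets. For 15 of the 20 the early value exceeded both unexposed values by more than these differed from each other, against 22.4% of all. These last 2 counts, and those below on the order of the arrays, were chosen after the values were seen. The members were chosen with earlier results of these data known, which bears on every count set against all probe sets.

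Later the group had no calls. On the intermediate array 0 of 20 were higher, against 0.824% of all probe sets, and 0 lower, against 0.339%. On the late array 0 were higher, against 0.566%, and 0 lower, against 0.953%. The member medians were 0.08 and 0.18 there on the log2 scale, beside 0.07 and 0.05 for all probe sets. On the intermediate array 1 of the 20 members exceeded both unexposed arrays by more than the gap between these, against 26.7% of all. On the late array 4 (20%) did, near the 24.3% of all. That gap was wider over the members, with a median of 0.32 against 0.22 (log2) over all probe sets tested. All 3 exposed arrays were set against the same sham and untreated arrays, so these comparisons share their controls.

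**Figure D1:**
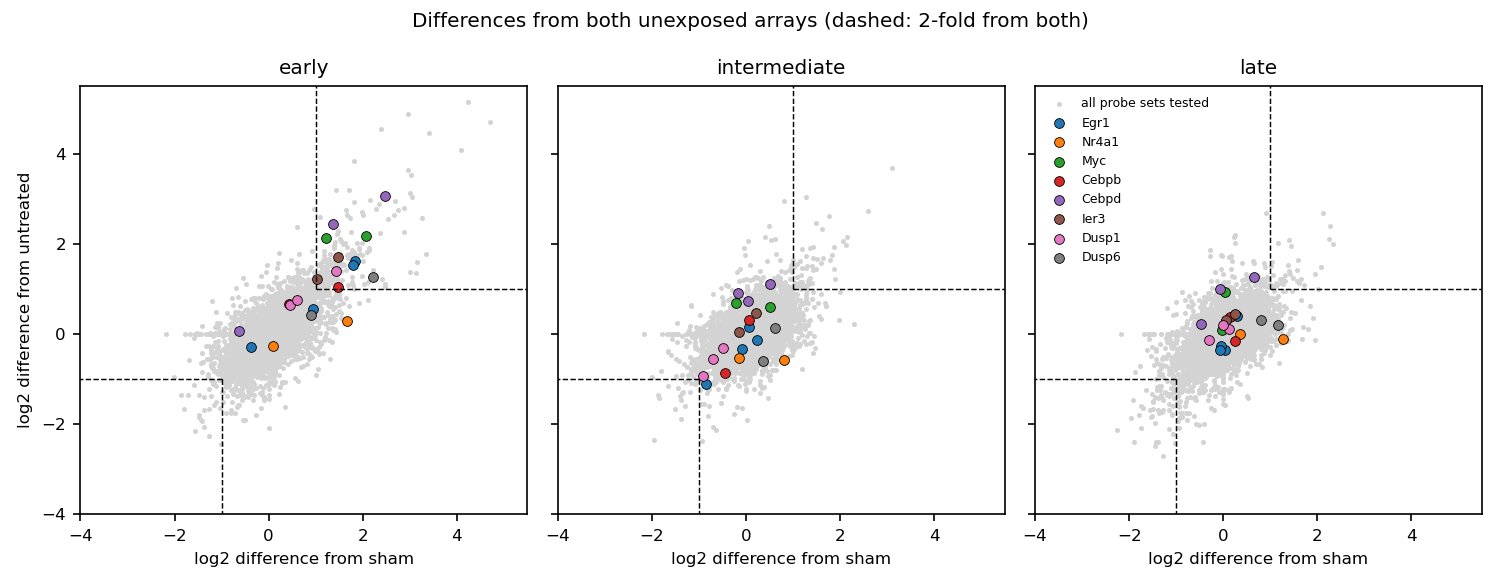
Log2 difference of each probe set from the sham array (x axis) and from the untreated array (y axis) on the early, intermediate and late arrays; coloured points are the 20 members, grey points all 6188 probe sets tested, and dashed lines mark 2-fold from both. On the early array 11 members lie in the upper right corner, and on the intermediate and late arrays 0 do.

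The promoters of members are shown because the factors that MAP kinases act on bind known short elements. RefSeq windows of 300 bases (GRCr8), 250 before and 50 after the annotated gene start, were held for 6 of the 9 genes, Btg2 included. Capitals mark CArG boxes and TGACG on either strand, the core of the CRE; the whole CRE, TGACGTCA, holds TGACG on both strands. The Egr1 window is chr18:26736828-26737127, plus strand, the Dusp1 window chr10:17184603-17184902, plus strand, the Cebpb window chr3:176816755-176817054, plus strand, and the Nr4a1 window chr7:134259888-134260187, plus strand.
Egr1: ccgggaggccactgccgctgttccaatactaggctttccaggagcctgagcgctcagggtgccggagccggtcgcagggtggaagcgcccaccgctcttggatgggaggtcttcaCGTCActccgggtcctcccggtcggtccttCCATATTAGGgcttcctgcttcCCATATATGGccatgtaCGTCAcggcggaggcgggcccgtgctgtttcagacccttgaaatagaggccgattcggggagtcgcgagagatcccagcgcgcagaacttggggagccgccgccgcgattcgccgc
Dusp1: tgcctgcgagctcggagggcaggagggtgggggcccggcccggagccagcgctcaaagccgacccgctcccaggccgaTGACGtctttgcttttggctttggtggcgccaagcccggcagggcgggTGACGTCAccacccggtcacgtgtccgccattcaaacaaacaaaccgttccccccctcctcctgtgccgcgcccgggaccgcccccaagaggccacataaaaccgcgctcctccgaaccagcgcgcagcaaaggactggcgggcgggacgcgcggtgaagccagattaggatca
Cebpb: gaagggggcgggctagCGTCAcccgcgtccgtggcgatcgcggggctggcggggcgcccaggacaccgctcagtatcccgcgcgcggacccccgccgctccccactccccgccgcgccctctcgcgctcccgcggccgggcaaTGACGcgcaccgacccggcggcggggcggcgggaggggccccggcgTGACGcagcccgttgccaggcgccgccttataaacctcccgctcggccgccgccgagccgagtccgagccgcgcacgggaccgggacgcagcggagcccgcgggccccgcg
Nr4a1: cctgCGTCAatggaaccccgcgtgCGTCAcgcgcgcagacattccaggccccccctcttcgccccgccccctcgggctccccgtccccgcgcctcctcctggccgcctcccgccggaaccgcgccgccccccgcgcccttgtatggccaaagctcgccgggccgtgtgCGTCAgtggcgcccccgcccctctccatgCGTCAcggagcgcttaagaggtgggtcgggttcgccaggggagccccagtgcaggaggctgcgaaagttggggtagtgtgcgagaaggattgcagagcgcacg

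The Egr1 window held 2 CArG boxes, which began at positions -105 and -83 from the start, and 2 copies of TGACG. A CArG box was present in 1.64% of all 33469 windows. Dusp1 held 1 whole CRE, beginning at position -124, an element found in 1.83% of windows, and another TGACG outside it. The Btg2 window, whose sequence is not printed, held 1 whole CRE too, beginning at position -201. Cebpb held 3 copies of TGACG and Nr4a1 held 4, and at least 1 copy was present in 21.2% of all windows. None of these elements matched in the Dusp6 window. Of the other elements searched on both strands, the E-box CACGTG (6.42% of windows) matched in Dusp1, and the EGR element GCGGGGGCG (2.73%) and the NF-kB element (4.18%) in Nr4a1. AP-1 TGACTCA (4.63%), C/EBP TTGCGCAA (0.170%) and STAT TTCNNNGAA (8.87%) matched in none of the 6. A match is a string of letters and not a binding measurement.

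Egr1 encodes a zinc finger transcription factor, one of the best known targets of ERK signalling through the CArG boxes shown above. Its probe set M18416_at read 5369 early, 1406 intermediate and 1452 late, against 1498 in sham and 1763 in untreated lung. The early array stood apart, and the later arrays lay below both unexposed ones. It was 3.58-fold above sham and 3.05-fold above untreated at 2 to 6 h. A second probe set, rc_AI176662_s_at, read 1708 early, 274 intermediate and 465 late, against 491 in sham and 594 in untreated lung. This is 3.48-fold and 2.87-fold on the early array, with the intermediate value lowest of all 5.

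The other Egr1 probe sets were not called. AF023087_s_at read 14889 early, 9250 intermediate and 7980 late, against 7805 in sham and 10222 in untreated lung. It was again highest on the early array, but by 1.91-fold over sham and 1.46-fold over untreated. U75398_s_at ran the other way, at 237 early, 321 intermediate and 379 late, against 307 in sham and 288 in untreated lung. Its whole range over the 5 arrays was 0.68 on the log2 scale, and its early value was the lowest. So 2 of 4 Egr1 probe sets passed, 1 differed in the same direction by less, and 1 was below both unexposed arrays on the early array.

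Nr4a1, the orphan nuclear receptor also called Nur77, was the 1 measured gene without a call. U17254_at read 661 early, 362 intermediate and 501 late, against 208 in sham and 543 in untreated lung. The early value was 3.18-fold above sham and 1.22-fold above untreated, so the exposed and unexposed arrays overlapped and the low value was that of the sham array. U17254_g_at, which shares its accession, read 1897 early, 1586 intermediate and 2272 late, against 1770 in sham and 2283 in untreated lung. These 5 values spanned 0.53 on the log2 scale, and the untreated array was highest.

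Myc encodes a transcription factor of growth and biosynthesis. Its probe set Y00396mRNA_at read 1099 early, 374 intermediate and 260 late, against 264 in sham and 246 in untreated lung. The early array was 4.16-fold above sham and 4.47-fold above untreated, the late array lay between the unexposed values, and the intermediate array was 1.42-fold and 1.52-fold above them. Among the 6188 probe sets it ranked 24th by the smaller of the early log2 differences. Y00396mRNA_g_at, of the same record, read 1145 early, 423 intermediate and 500 late, against 490 in sham and 262 in untreated lung. It passed as well, at 2.33-fold and 4.36-fold, but its sham value was 1.87-fold above its untreated value, where the first probe set gave 1.07-fold.

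Cebpb and Cebpd encode basic leucine zipper factors that act in inflammation. For Cebpb, S77528cds_s_at read 1718 early, 458 intermediate and 746 late, against 623 in sham and 834 in untreated lung. This was 2.76-fold and 2.06-fold on the early array, and the intermediate value was below both unexposed ones. The call, the only one of Cebpb, ended narrowly under the other 3 scalings, where the smaller log2 difference was 0.979 to 0.996, just under 2-fold. X60769mRNA_at read 7643 early, 5977 intermediate and 6263 late, against 5689 in sham and 4839 in untreated lung. All 3 exposed arrays were above both unexposed arrays here, with no overlap, but the early differences were only 1.34-fold and 1.58-fold and did not pass.

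Cebpd had the highest fold of the group. Its probe set rc_AI045030_s_at read 2187 early, 564 intermediate and 624 late, against 394 in sham and 262 in untreated lung. The early array was 5.56-fold above sham and 8.35-fold above untreated, rank 17 of 6188. The later arrays stayed above both unexposed arrays, by 1.43-fold and 2.16-fold at the intermediate and 1.58-fold and 2.38-fold at the late times, so exposed and unexposed values did not overlap. M65149_at read 5250 early, 1815 intermediate and 1931 late, against 2030 in sham and 965 in untreated lung. It passed on the early array, at 2.59-fold and 5.44-fold, while the later arrays lay between sham and untreated. The remaining probe set, rc_AA946292_at, read 281 early, 446 intermediate and 313 late, against 433 in sham and 270 in untreated lung, so the early array was below sham.

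Ier3, a stress-induced regulator of survival and signalling, passed with both of its probe sets, which share a record. X96437mRNA_g_at read 3105 early, 1311 intermediate and 1171 late, against 1124 in sham and 946 in untreated lung. X96437mRNA_at read 1488 early, 664 intermediate and 872 late, against 735 in sham and 641 in untreated lung. The first was 2.76-fold and 3.28-fold above sham and untreated at 2 to 6 h, and the second 2.02-fold and 2.32-fold, just past the 2-fold line. The call of the second ended under the other 3 scalings, with a smaller log2 difference of 0.83 to 0.90. Only the early array stood clear of the rest in both. The later values of X96437mRNA_g_at also lay above both unexposed values, by at most 1.17-fold over sham and 1.39-fold over untreated.

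Dusp1 encodes a nuclear phosphatase that inactivates p38, JNK and ERK. S74351_s_at read 1987 early, 390 intermediate and 806 late, against 738 in sham and 752 in untreated lung. The unexposed arrays differed by only 0.03 (log2), the early array was 2.69-fold and 2.64-fold above them, and the intermediate array was lowest, with log2 differences of -0.92 and -0.95. S81478_s_at read 2960 early, 1532 intermediate and 2151 late, against 2161 in sham and 1891 in untreated lung. U02553cds_s_at read 2538 early, 1025 intermediate and 1360 late, against 1672 in sham and 1505 in untreated lung. These probe sets had the same highest and lowest arrays, but the early excess was between 1.37-fold and 1.69-fold and did not pass.

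Dusp6 encodes a cytoplasmic phosphatase with a strong preference for ERK. X94185cds_s_at read 807 early, 220 intermediate and 384 late, against less than the floor in sham and 334 in untreated lung. That puts the early array 2.41-fold over untreated lung and at least 4.68-fold over sham. A floor set at the 60th percentile ended the call, with a smaller log2 difference of 0.82. U42627_at read 2903 early, 2370 intermediate and 2692 late, against 1554 in sham and 2179 in untreated lung. All exposed values exceeded both unexposed values without overlap, but by at most 1.87-fold over sham and 1.33-fold over untreated. Sham was the lowest array for both Dusp6 probe sets.

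**Figure D2:**
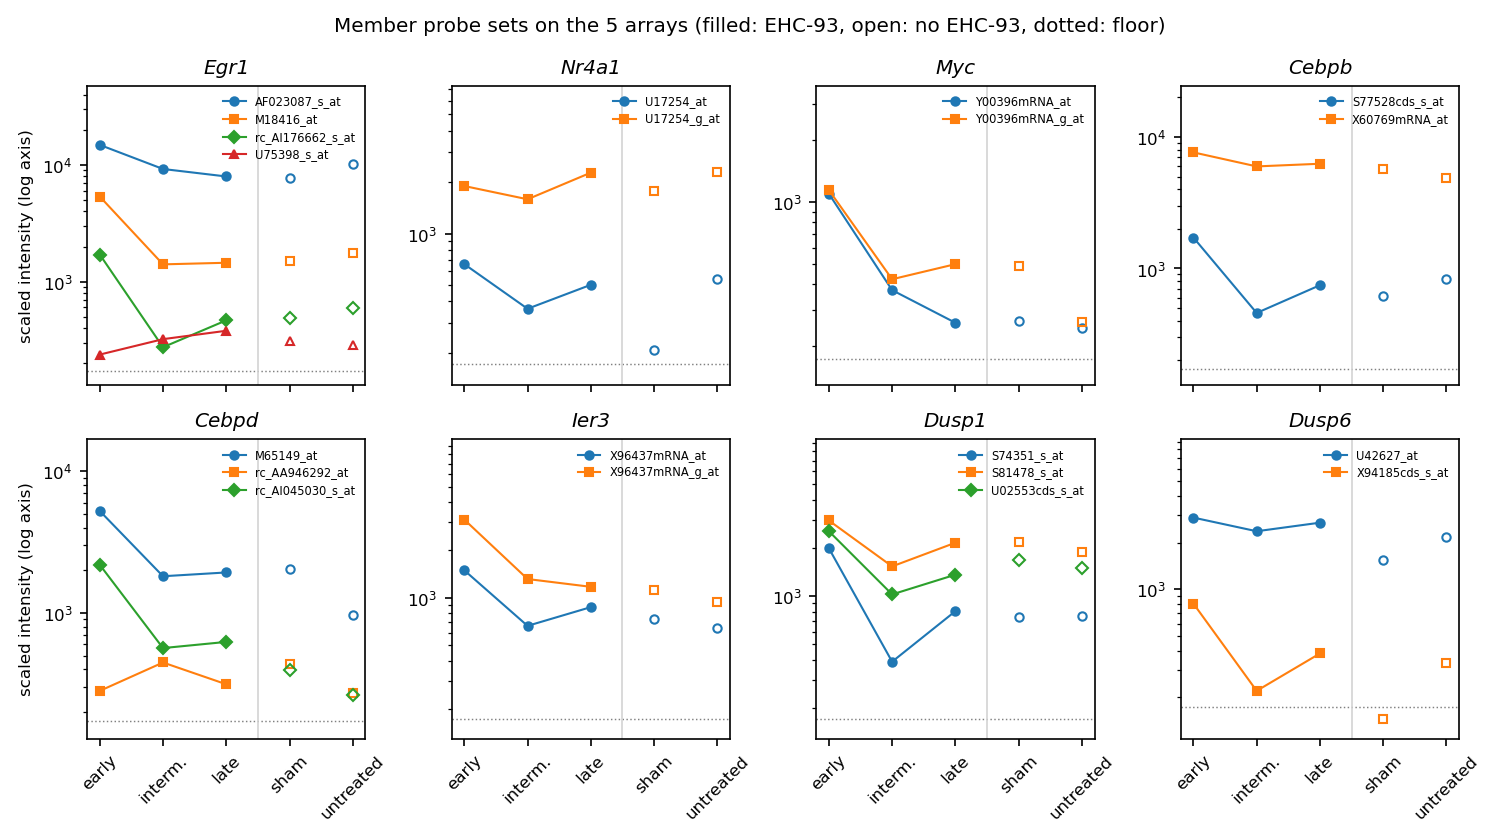
Scaled intensity (log axis) of each member probe set on the early, intermediate, late, sham and untreated arrays, 1 panel per gene; filled symbols are EHC-93 arrays, joined in time order, open symbols the unexposed arrays, and the dotted line is the floor of 172.53. The early array is the highest of the 5 for 17 of 20 probe sets, against 22.8% of all probe sets tested. The intermediate array is the lowest for 7 of 20, against 11% of all.

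By any amount, 17 of the 20 probe sets lay above both unexposed arrays on the early array. Of all 6188 probe sets tested fewer than 2184 did, which is the rank of the first that did not. Probe sets of a gene often differed in size. Both probe sets passed for Myc and Ier3, 2 of 3 for Cebpd, 2 of 4 for Egr1, 1 of 2 for Cebpb and for Dusp6, 1 of 3 for Dusp1 and 0 of 2 for Nr4a1. The widest gap within a gene was that of Cebpd, where the early log2 difference from the mean of the unexposed arrays ran from -0.28 to 2.77. For Egr1 it ran from -0.33 to 1.72, for Dusp1 from 0.55 to 1.42, for Cebpb from 0.54 to 1.25 and for Dusp6 from 0.66 to 1.75. With each gene read by the probe set of highest mean alone, 3 of 8 genes were higher on the early array (Myc, Cebpd and Ier3), against 2.54% of 3667 genes.

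**Figure D3:**
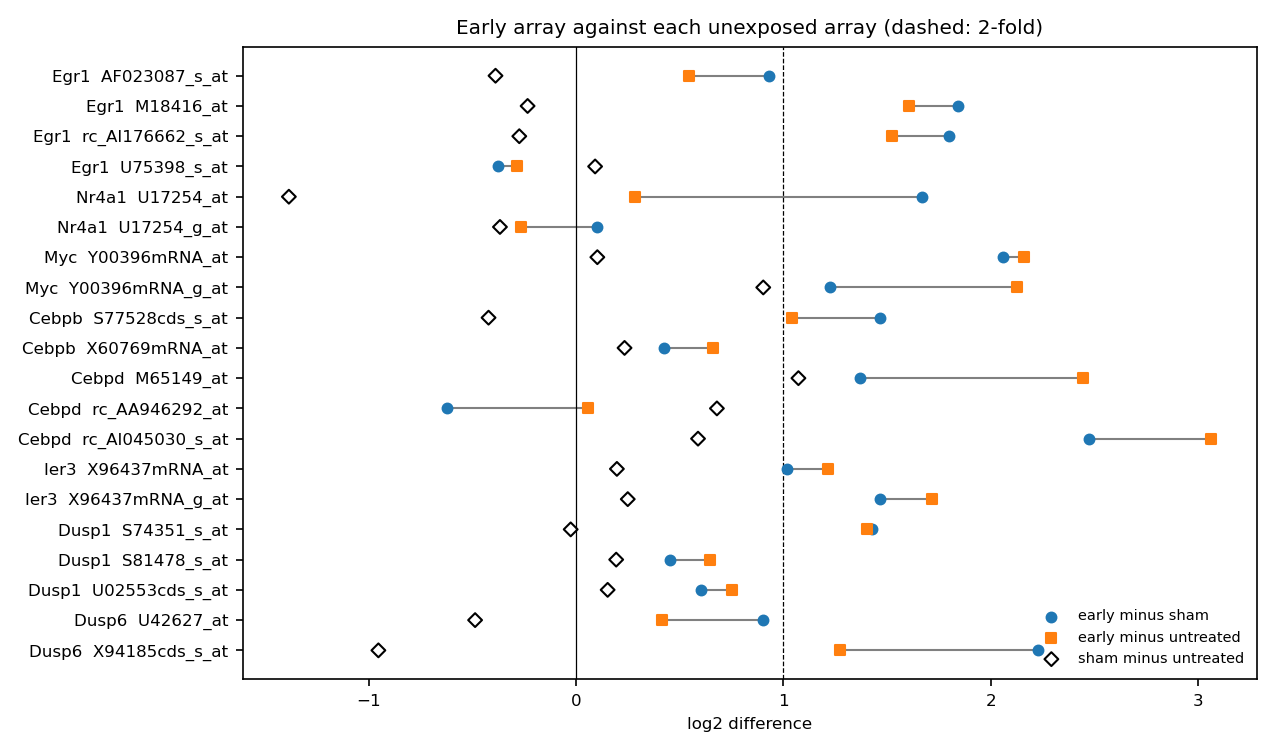
Log2 difference of the early array from the sham array (circles) and from the untreated array (squares) for each of the 20 member probe sets, with the difference of sham from untreated as open diamonds; the dashed line marks 2-fold. For 11 probe sets both the circle and the square lie beyond the dashed line. The distance between them is wide for Nr4a1 U17254_at and Dusp6 X94185cds_s_at, with a low sham value. It is also wide for Cebpd M65149_at and Myc Y00396mRNA_g_at, where sham was above untreated.

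In several members the highest and the lowest array were those with the highest and lowest integrity ratios. The early array was highest and the intermediate array lowest for 6 of 20 member probe sets (Egr1 M18416_at and rc_AI176662_s_at, Cebpb S77528cds_s_at and all 3 of Dusp1), against 4.73% of all probe sets, as both ratios were. All 5 arrays fell in the order of the ratios for 1 member, Cebpb S77528cds_s_at, against 0.986% of all. The part of RNA or copy integrity in these differences was not tested.

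The sham array was also set against the untreated array. The sham pool joined RNA from 2, 15 and 24 h into 1 value, so it cannot show what saline did at the early times alone. The part of saline in the early calls was not tested. Of the members 1 probe set was at least 2-fold higher on the sham array, against 1.66% of all probe sets, and 1 lower, against 1.92%. The higher one was Cebpd M65149_at, 2.10-fold, and the lower one Nr4a1 U17254_at, with a log2 difference of -1.39. The median member differed by 0.10 (log2) and the median probe set by -0.02. All 3 Cebpd probe sets read higher in sham than in untreated lung, by up to 2.10-fold, and both Dusp6 and both Nr4a1 probe sets were lower.

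Set against the later dust arrays, with no unexposed array involved, 10 of 20 members were at least 2-fold higher on the early array than on both, against 2.57% of all probe sets, and 0 were lower, against 0.711%. The 10 were the 11 called above without Ier3 X96437mRNA_at. This comparison shares the early array with the earlier one. Its highest fold over the intermediate array was that of Egr1 rc_AI176662_s_at, 6.24-fold, followed by Dusp1 S74351_s_at, 5.09-fold. Over the late array the highest was Myc Y00396mRNA_at, 4.23-fold. Between the later arrays themselves, Dusp1 S74351_s_at was 2.06-fold higher on the late than on the intermediate array.

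Averaged over all 3 dust phases, no member passed a test of exposed against unexposed arrays. In limma, with 3 exposed and 2 unexposed arrays and Benjamini-Hochberg adjustment over 6188 probe sets, 0 of 20 members and 0% of all probe sets had an adjusted p under 0.05. At an unadjusted p under 0.05 there were 1 member and 6.92% of all probe sets. The lowest adjusted p of a member was 0.71, for Dusp6 U42627_at, with a log2 difference of 0.52 ± 0.20 (SE, limma). Cebpd rc_AI045030_s_at had the largest difference, 1.51 ± 0.66 (SE, limma adjusted p = 0.76), and was higher on all 3 exposed arrays. The differences between phases are part of the residual in this fit, and its p-values reflect the spread among 5 arrays and nothing else.

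Genes with the most similar profile over the 5 arrays were found by the root mean square difference of log2 values centred on each probe set's mean, among 673 genes that ranged over at least 2-fold. Egr1 M18416_at was closest to Cd55, at 0.03, which read 700 early, 184 intermediate and 198 late, against 198 in sham and 241 in untreated lung. Dusp1 S74351_s_at (0.16) and Cebpb S77528cds_s_at (0.09) had the same nearest gene, Arf2, and Egr1 rc_AI176662_s_at had Cav1 (0.21). The nearest gene was Plaur for Cebpd M65149_at (0.15) and for Myc Y00396mRNA_g_at (0.11), and F3 for Cebpd rc_AI045030_s_at (0.17). It was Ifrd1 for Myc Y00396mRNA_at (0.18), Il1a for Ier3 X96437mRNA_g_at (0.11), Magt1 for Ier3 X96437mRNA_at (0.07) and Sec61a1 for Dusp6 X94185cds_s_at (0.10). With 5 arrays such closeness is only a description.

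Relatives of the members were read through 8 lists, 1 probe set per gene, with 68 genes above the floor. On the early array 7 of the 68 were higher, against 2.54% of all genes, 0 were lower, against 0.3%, and 61 did not pass; the median was 0.13 above the unexposed mean, beside -0.01 for all genes. On the intermediate array 0 were higher, against 0.873%, and 1 was lower, against 0.218%. On the late array 1 was higher, against 0.6%, and 0 lower, against 1.04%. The calls of the later arrays were Bmyc, a relative of Myc, at 180 on the intermediate array against 472 and 499 on the sham and untreated arrays, and the clock factor Dbp, at 2933 on the late array against 699 in sham and 1051 in untreated lung. Another Bmyc probe set, Z38067exon_at, which the count of 1 probe set per gene leaves out, was lower on the late array, at 215 against 455 in sham and 451 in untreated lung, and on the intermediate array, where it was under the floor, while Z38067exon_g_at was not called.

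The early calls lay in 3 of the 8 lists. Among AP-1 and ATF factors, which bind DNA as pairs in the same signal response, 3 of 8 were higher (Fosl1, Atf3 and Junb), with a median of 0.82. Among 19 other immediate early genes 3 were higher, with a median of 0.17. Zfp36, which speeds the decay of cytokine messages, read 9704 early, 3224 intermediate and 4924 late, against 4041 in sham and 3432 in untreated lung. Its second probe set, X63369cds_at, read 2007 early, against 758 in sham and 835 in untreated lung. Gadd45a, a stress and growth arrest gene, read 1739 early, against 834 in sham and 827 in untreated lung. Of its other probe sets L32591mRNA_g_at passed as well, while rc_AI070295_at and rc_AI070295_g_at, at 1.71-fold and 1.45-fold over sham, did not. The circadian repressor Bhlhe40 read 356 early, against values under the floor in sham and untreated lung.

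Among 7 other EGR and NR4A genes and their regulators the early median was 0, and 1 was higher on the early array. This was the cyclic AMP response modulator Crem, at 484 early, against less than the floor in sham and 216 in untreated lung. Its probe set U04835_at read 256 against 234 on the sham array, so this call rests on 1 probe set. The 3 measured other MAP kinase phosphatases had 0 calls and a median of 0.30, where 2.54% of all genes were higher on the early array. Ptprr read 1157 early, against 606 in sham and 668 in untreated lung. Dusp5 read 743 early, against 629 in sham and 581 in untreated lung. Ptpn7 ran the other way, at 246 early, against 450 in sham and 338 in untreated lung.

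The genes of the MAPK cascade had no calls. Of 16 measured 0 were higher on any of the 3 exposed arrays, against 2.54%, 0.873% and 0.6% of all genes in time order. Also 0 were lower, against 0.3%, 0.218% and 1.04%. These counts are near the shares of all genes. The medians were -0.17, 0.01 and 0.03 in time order. Map2k2, an ERK kinase, read 3073 early, 6057 intermediate and 4684 late, against 3870 in sham and 4432 in untreated lung. Araf read 2717 on the early array, against 3433 in sham and 2941 in untreated lung. Mapk6 ran the other way without a call, at 1937 early, against 881 in sham and 1118 in untreated lung. The early array had 0 calls among 6 other C/EBP and related factors (median 0.19) and 7 genes of the MYC network (median -0.005). It also had 0 among 2 of the BTG and TOB family (median 0.37). Of all genes 2.54% were higher there. Btg1, an antiproliferative relative of Btg2, read 9670 early, against 6519 in sham and 7448 in untreated lung, and Btg3 read 662 early, against 606 in sham and 501 in untreated lung.

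**Figure D4:**
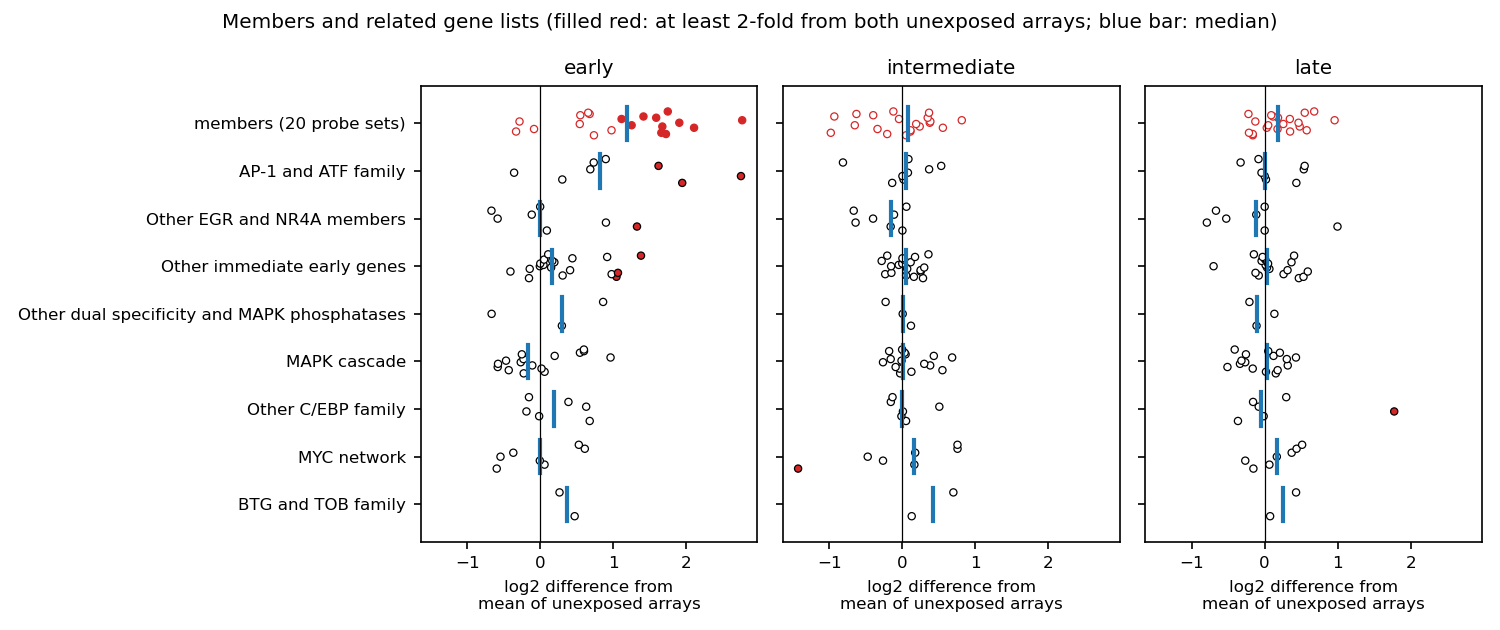
Log2 difference from the mean of the unexposed arrays for the 20 member probe sets and the measured genes of 8 related lists on the early, intermediate and late arrays; each point is 1 probe set, filled red where it was at least 2-fold from both unexposed arrays, and blue bars are medians. The member median is 1.18 on the early array and 0.08 and 0.18 on the later ones.

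Markers of other cells also differed between arrays. Of 4 measured neutrophil markers above the floor, 3 were higher on the early array (S100a8, S100a9 and Padi4), 2 at the intermediate and 1 at the late times. The shares of all genes higher on these arrays were 2.54%, 0.873% and 0.6%. Summed over the 5 annotated neutrophil markers, the scaled level was 6456 early, 5938 intermediate and 4164 late, against 3063 in sham and 2264 in untreated lung. Of 5 measured macrophage and monocyte markers 1 was higher on the early array (Cd14), 0 at the intermediate and 3 at the late times (Fcgr2b, Ctsk and Spp1). Their sum over 7 annotated genes was 48128, 68691 and 69099 on the exposed arrays in time order, against 54993 in sham and 50394 in untreated lung, most of it from Lyz2. Without Lyz2 the other 6 summed to 3350 early, 3550 intermediate and 4930 late, against 2027 in sham and 2125 in untreated lung, so the early array then lay above both unexposed arrays and not below them. Cardiac muscle markers, 7 in all, summed to 13339 early, 25803 intermediate and 10230 late, against 19646 in sham and 36689 in untreated lung. No marker in these lists was at 0 on an array, Cxcr2, Itgam, Csf1r and Ryr2 were under the floor throughout, and their part in the members' differences was not tested.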

How the data were processed

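Lung RNA pools were measured on 5 arrays, 1 per group taken from the titles. The authors deposited 1 linear intensity per probe set and array (8799 probe sets); no algorithm or software is named in them or in the labels. Scaling by the authors is read from the values, whose 2% trimmed means spanned only 1001.38 to 1001.63. Apart from the integrity ratios, the 59 control probe sets were not used. Of the rest, 7006 had 1 gene symbol in the platform annotation, 308 several and 1426 were not listed; 0 of those with several named a member.

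From the deposited intensity, arrays were scaled to one median (factors 0.931 to 1.07), floored at the 40th percentile and taken to log2. Folds against a floored value are lower bounds. Exposed and unexposed arrays were compared with limma 3.58.1 (lmFit, eBayes, Benjamini-Hochberg) in R 4.3.3; other steps used Python 3.11.15. Steps were tested on simulated data. Named list genes were up to 4 called members per list or, with none called, the 2 with the highest mean. The members and lists were chosen with earlier results of these data known. Alternatives covered scaling, floor, fold threshold, probe set choice, filter, prior and arrays left out.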

Additional observations from a re-analysis of the deposited data

Results flagged for a closer look

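Probe sets that were called higher on the early array and lay below both unexposed arrays on a later one differed in sign between phases. None was called lower with the scaling and floor used here. Egr1 M18416_at lay -0.09 (intermediate) and -0.05 (late) from sham (log2), and rc_AI176662_s_at -0.08 (late). Their gaps between sham and untreated were larger, 0.23 and 0.27. On the intermediate array rc_AI176662_s_at lay -0.84, Cebpb S77528cds_s_at -0.44 and Dusp1 S74351_s_at -0.92 from sham. Their gaps were 0.27, 0.42 and 0.03 in that order, so the Cebpb difference from sham was about the size of its gap. The difference between phases was not tested, since each phase had 1 array. Egr1 M18416_at differed by 1.93 (log2) between the early and the intermediate array and by 1.89 between the early and the late array. Egr1 rc_AI176662_s_at differed by 2.64 and 1.88 in the same comparisons. Cebpb S77528cds_s_at differed by 1.91 and Dusp1 S74351_s_at by 2.35 between the early and the intermediate array. The intermediate array had the lowest 5′ to 3′ ratios and the early array the highest, and the part of this in the differences was not tested.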

How the results depend on the processing

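The 11 higher probe sets on the early array became 3 at a 3-fold threshold and 3 with 1 probe set per gene; the other planned settings, and sham alone (12), the untreated array alone (11) or all 4 other arrays as comparator (10), stayed within 1.5 times. Within that range the call of Cebpb was lost under the 3 other scalings, as was that of Ier3 X96437mRNA_at, and a floor at the 60th percentile ended the call of Dusp6. The 10 higher on the early than on both later arrays became 3 at 3-fold and 3 with 1 probe set per gene, and were 10 against the late array alone and 12 against the intermediate array alone; the settings with sham, untreated, late or intermediate alone and with all 4 others were chosen after seeing the data. The 0 lower on the intermediate array became 2 without further scaling, 2 when the 75th percentile set the scale and 2 at 1.5-fold, each time Egr1 rc_AI176662_s_at and Dusp1 S74351_s_at. The 0 higher on the late array became 1 at 1.5-fold, Cebpd rc_AI045030_s_at. For sham against untreated, the 1 higher became 2 with 75th percentile scaling, 4 at 1.5-fold and 0 at 3-fold, and the 1 lower became 2 with values as deposited, 2 with the floor at the 20th percentile, 2 at 1.5-fold, and 0 with the floor at the 60th percentile, 1 probe set per gene or 3-fold. A wider or narrower threshold and fewer probe sets change counts by construction; the cause of the other shifts was not tested. In limma 0 members passed under every setting run (with no filter, 3 of all 8740 probe sets did, none a member), including each array left out in turn, where the lowest member adjusted p ranged from 0.30 to 0.86. Of the single log2 differences, 19 moved by over 1.5-fold with the floor at the 60th percentile and none did under the other 4 scalings and floors; none changed sign where at least 2-fold. No paired analysis was possible because each group had 1 array. The number of arrays and signals near the floor limit what small differences can show.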
